A study of Mus musculus with 11 samples.

Results

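The 29 genes described here belong to cholesterol and fatty acid synthesis and its regulation and were taken as a list of names by their role in the pathway. All 29 were found among the 37310 gene identifiers of the count tables, and all 29 passed the filter on low counts that left 14172 genes to test. The libraries came from organoids, self-organising epithelial cultures grown from intestinal crypts, that had been derived from mice carrying the stem cell reporter allele Lgr5-EGFP-IRES-creERT2 and were grown in a commercial intestinal medium within Matrigel. Late passage comprised passages 11, 12 and 13 of 2 animals, mouse_283 and mouse_285 (n = 6 libraries), and early passage comprised passages 2, 3 and 4 of mouse_283 with passages 2 and 4 of mouse_285 (n = 5). Donors of 4 and 24 months are named by the labels, but neither age is tied to an animal. No label says that libraries of 1 animal came from separate cultures, so p-values measure the spread between these libraries, and 2 animals limit how far any difference can be carried.

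Cholesterol is built from acetyl-CoA through mevalonate, squalene and lanosterol, and fatty acids are built from the same precursor through malonyl-CoA. The membrane-bound factors SREBP-2 and SREBP-1 (genes Srebf2 and Srebf1) drive the sterol and the fatty acid genes. Scap escorts them out of the endoplasmic reticulum when sterol is low, and Insig1 holds them there when sterol is plentiful. The small-intestinal epithelium both makes cholesterol and takes it up from the lumen.

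Levels are given as CPM, the reads of a gene scaled to a common library total, from library sizes scaled by the trimmed mean of M values (TMM). Each library held 15114132 to 28949911 reads in genes, and the lowest count of any member in any library was 344 reads, so depth did not limit these genes. The epithelial marker Epcam was at 1118 to 1230 CPM in late and 613 to 1165 CPM in early libraries, and the leukocyte marker Ptprc reached at most 0.0326 CPM in late libraries and was at 0 in early ones. The 12 enterocyte markers summed to 2945 to 4086 CPM in late and 4365 to 5877 CPM in early libraries, without overlap. Late over early, 9 of the 12 had negative and 3 positive log2 fold changes. Alpi, Fabp1 and Fabp2 averaged higher late (163, 373 and 147 CPM) than early (139, 342 and 127 CPM). Abundant markers weigh most in such a sum, and Anpep alone averaged 687 CPM late and 1609 CPM early. In bulk samples, fewer cells of a type and less RNA per cell cannot be told apart. Passages 3 and 4 of mouse_283 stood apart in base composition. Their gene levels rose by 0.97 and 0.78 on the log2 scale for each 10 points of transcript GC content, against slopes of -0.41 to 0.20 in the other 9 libraries. Both are early libraries, so the results on stage that rest on them are given with and without them, where "without the pair" means without these 2 libraries. Passage 4 of mouse_285, the library with the slope of 0.20, is also early and stays in the fits without the pair. The late libraries all had negative slopes, from -0.331 to -0.075, so those fits do not remove all difference in base composition between the stages.

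No member was called different between late and early passage by edgeR's quasi-likelihood F test (Benjamini-Hochberg adjusted p under 0.05, animal in the model). The background was 432 of 14172 genes called, 3.05%, of which 100 were higher and 332 lower late. Among the members 12 log2 fold changes were positive and 17 negative, with a median of -0.15 against -0.02 over all tested genes. An unadjusted p under 0.05 was reached by 5 members (17.2%), against 23.6% of all tested genes. DESeq2, run on the same counts, called 2 members, Srebf1 and Fasn, both lower late, where it called 9.49% of its 14149 tested genes. For every one of the 29 members the ranges of late and early libraries overlapped, a count that was not made over all tested genes. Within both animals every late library lay below every early one for 1 member, against 771 of 14172 genes. Every late library lay above every early one of its animal for 0 members, against 565 genes. The 95% interval of the fold change lay within -1 to 1 on the log2 scale for 23 members, and the widest intervals reached 1.66 upward and -1.11 downward.

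**Figure D1:**
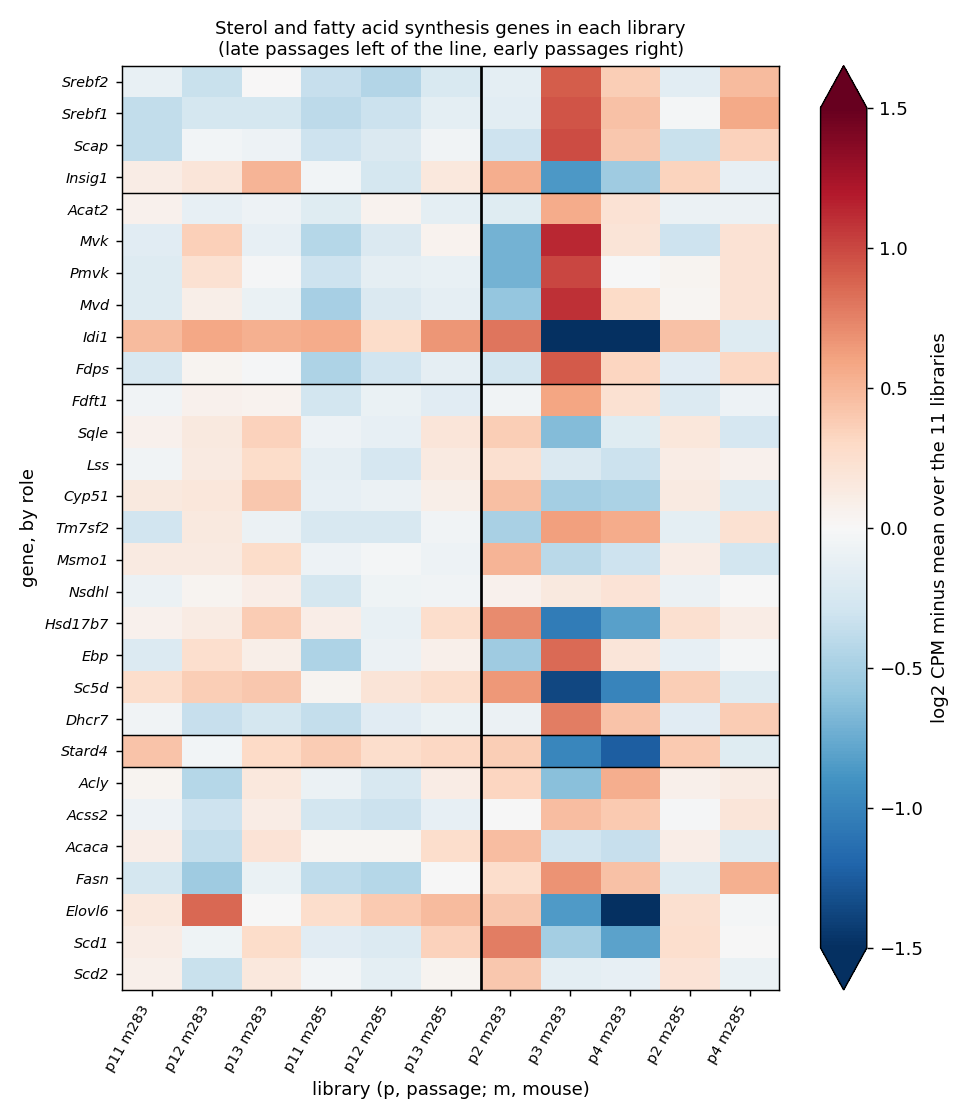
Log2 CPM of each of the 29 genes (rows, by role) minus its mean over the 11 libraries (columns), with the 6 late libraries left of the vertical line and the 5 early libraries right of it. Horizontal lines part the regulators, mevalonate enzymes, sterol enzymes, Stard4 and fatty acid genes, and the strongest colours fall in passages 3 and 4 of mouse_283, where the log2 level of Idi1 minus that in the other 9 libraries was -2.51.

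Among the regulators, Srebf1 (ENSMUSG00000020538.8) had the smallest p of the 29 genes. Its late libraries ran from 252 to 297 CPM with a median of 268 CPM, against 296, 631 and 447 CPM in passages 2, 3 and 4 of mouse_283 and 323 and 487 CPM in passages 2 and 4 of mouse_285. Late levels were low and close together, and within each animal every late library lay below every early one, which held for no other member and for 771 of all tested genes (5.44%). Srebf1 averaged 269 ± 16.5 CPM late and 437 ± 136 CPM early (SD, n = 6 and 5), a log2 fold change of -0.69 (SE 0.20, edgeR adjusted p = 0.08). The value was -0.58 within mouse_285 alone and -0.77 within mouse_283, and -0.41 (edgeR adjusted p = 0.149) without the pair of early libraries that stood apart.

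Srebf2 (ENSMUSG00000022463.6) ran from 355 to 482 CPM late, median 397 CPM, against 435, 907 and 621 CPM in passages 2, 3 and 4 of mouse_283 and 432 and 667 CPM in passages 2 and 4 of mouse_285. The 2 passage 2 libraries lay within the late range and the later early passages above it. The log2 fold change was -0.56 (SE 0.20, edgeR adjusted p = 0.134), and -0.32 without the pair (edgeR adjusted p = 0.301). Scap, the escort, was at 57.4 to 71.9 CPM late, median 66.8 CPM, against 59.5, 145 and 98.0 CPM in mouse_283 and 58.6 and 94.2 CPM in mouse_285, in the same passage order. Its log2 fold change of -0.44 shrank to -0.09 without passages 3 and 4 of mouse_283. Insig1, the retention protein and itself an SREBP target, went the other way in those libraries. It had 378 to 648 CPM late, median 500.0 CPM, against 664, 249.8 and 315 CPM in mouse_283 and 575 and 418 CPM in mouse_285. The log2 fold change of Insig1 was 0.16 with all libraries and -0.20 without the pair.

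**Figure D2:**
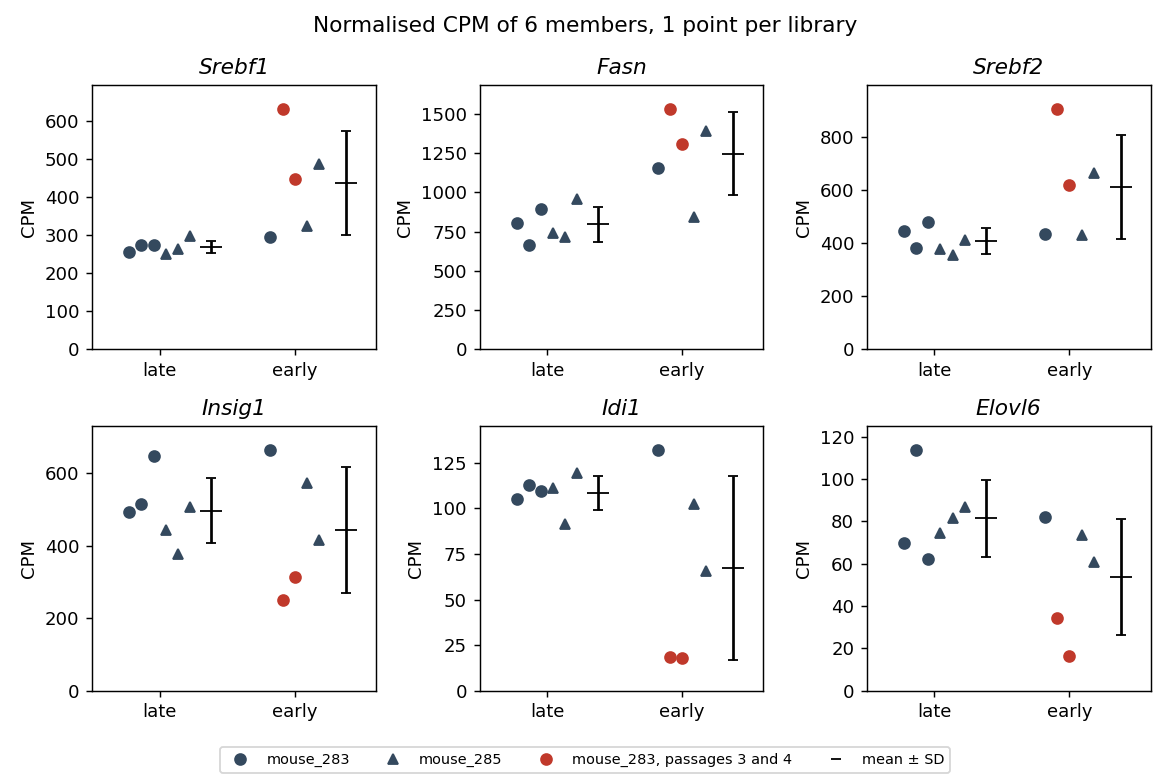
Normalised CPM of Srebf1, Fasn, Srebf2, Insig1, Idi1 and Elovl6, 1 point per library (circles mouse_283, triangles mouse_285, red for passages 3 and 4 of mouse_283), with the mean and SD beside each group, late left and early right. The red points are the highest or among the highest for Srebf1, Fasn and Srebf2 and the lowest for Insig1, Idi1 and Elovl6.

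Promoter sequence was looked at because the SREBPs act together with the factor NF-Y at their target promoters. RefSeq start-site windows (build GRCm38.p6, 250 bases before to 50 after the start) were at hand for 23 of the 29 members, and not for Sqle, Fdft1, Fdps, Stard4, Scd1 and Scd2. The NF-Y box CCAAT, searched on both strands, was in a window of 19 of these 23 genes (82.6%), against 41.1% of the 27025 genes in the table, and in 69.0% of the 29 member windows against 37.4% of all 32851 windows. The GC box GGGCGG was in 75.9% of member windows against 35.7% of all windows. The motif TCACNCCAC, one form of the sterol response element, was in none of the member windows and in 1.24% of all windows. Its shorter core ATCACC, which was added after the longer form had given no match, was in 20.7% of member windows against 9.98% of all. The E-box CACGTG, which SREBPs can also bind, was in 20.7% against 7.15%. The comparison was with all windows, not with those of the 14172 tested genes or with windows of like GC content. Whether the shares set the members apart from such windows was not tested. A match is a description of these letters and no evidence of binding.

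The 250 bases before the start sites of the regulator Srebf2, the sterol enzyme gene Cyp51 and the fatty acid gene Fasn are shown as examples. Each holds both an NF-Y box and the core, marked in capitals in lower-case sequence, 5′ to 3′ on the gene's strand. Windows of Pmvk, Lss and Nsdhl also hold both and are not shown. The NF-Y box reads CCAAT or, on the other strand, ATTGG, and in Fasn a pair of opposed boxes overlap as CCAATTGG. The Srebf2 stretch is chr15:82147019-82147268 (plus strand), that of Cyp51 chr5:4104698-4104947 (minus strand) and that of Fasn chr11:120824548-120824797 (minus strand).
Srebf2: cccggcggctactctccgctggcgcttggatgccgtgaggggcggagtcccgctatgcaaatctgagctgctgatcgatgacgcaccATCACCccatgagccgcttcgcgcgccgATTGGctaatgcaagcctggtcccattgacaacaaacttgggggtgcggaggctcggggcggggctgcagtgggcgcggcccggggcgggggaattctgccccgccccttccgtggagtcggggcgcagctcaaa
Cyp51: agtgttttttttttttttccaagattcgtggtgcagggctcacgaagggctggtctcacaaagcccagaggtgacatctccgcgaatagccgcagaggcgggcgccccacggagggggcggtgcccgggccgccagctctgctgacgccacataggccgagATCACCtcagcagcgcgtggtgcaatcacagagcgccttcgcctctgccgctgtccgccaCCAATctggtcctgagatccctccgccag
Fasn: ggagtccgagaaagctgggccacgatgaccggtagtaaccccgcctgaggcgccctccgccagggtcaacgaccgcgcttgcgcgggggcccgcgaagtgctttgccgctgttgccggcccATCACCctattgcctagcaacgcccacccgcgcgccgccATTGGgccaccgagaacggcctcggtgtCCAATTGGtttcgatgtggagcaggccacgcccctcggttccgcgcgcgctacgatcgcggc

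The 6 mevalonate enzymes carry acetyl-CoA to farnesyl pyrophosphate, and none was called. With all libraries 5 of the 6 had negative fold changes, without the pair 2 of the 6, and after correction for GC content and transcript length 3 of the 6. Idi1 (ENSMUSG00000058258.6), which isomerises isopentenyl pyrophosphate, had the widest log2 range of the 29 genes over all 11 libraries, 2.89, and one of 1.00 over the 9 without the pair, where Fasn (1.07) and Mvk (1.06) were wider. It had 91.7 to 119 CPM late, median 110.4 CPM, against 132, 18.5 and 17.8 CPM in passages 2, 3 and 4 of mouse_283 and 103 and 65.9 CPM in passages 2 and 4 of mouse_285. The low values in passages 3 and 4 of mouse_283 entered the log2 fold change of 0.69 (SE 0.45, edgeR adjusted p = 0.335), which was 0.11 without them. Fdps, which makes farnesyl pyrophosphate, had 375 to 533 CPM late, median 454 CPM, against 427, 975 and 646 CPM in mouse_283 and 460 and 642 CPM in mouse_285, with a log2 fold change of -0.43, and of -0.16 without the pair. Mvk, Pmvk and Mvd, the kinases and the decarboxylase between mevalonate and isopentenyl pyrophosphate, were each lowest of all 11 libraries in passage 2 of mouse_283 (45.8, 57.1 and 90.1 CPM) and highest in passage 3 of that animal (164, 187 and 287 CPM). Their late libraries spanned 55.3 to 95.6 CPM, 75.1 to 109 CPM and 95.6 to 143 CPM. The log2 fold changes were -0.27 in Mvk, -0.28 in Pmvk and -0.45 in Mvd, and without the pair 0.16, 0.05 and -0.07. Acat2, the cytosolic thiolase, had the narrowest log2 range of the members, 0.24, over the 9 libraries without the pair. Over all 11 libraries its range was 0.73, and those of Nsdhl (0.468) and Lss (0.594) were narrower.

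The 11 enzymes from squalene to cholesterol had 6 positive and 5 negative fold changes with all libraries (median 0.04 on the log2 scale), 3 and 8 without the pair (-0.08) and 2 and 9 after GC and length correction (-0.14), none called. Sqle, which oxidises squalene and is a control point of the pathway, had 252 to 350 CPM late, median 295 CPM, against 355, 175 and 241 CPM in passages 2, 3 and 4 of mouse_283 and 308 and 231 CPM in passages 2 and 4 of mouse_285. Cyp51, the lanosterol demethylase, had 420.3 to 604 CPM late, median 498 CPM, against 627, 320.1 and 329 CPM in mouse_283 and 501 and 399.6 CPM in mouse_285. Both genes were highest of all libraries in passage 2 of mouse_283 and lowest in passage 3 of that animal. Their log2 fold changes were 0.17 in Sqle and 0.19 in Cyp51, and without the pair -0.05 and -0.09. Dhcr7, which makes cholesterol from its last precursor, had 161 to 199 CPM late, median 178 CPM, against 194, 352 and 278 CPM in mouse_283 and 184 and 270.1 CPM in mouse_285. Its log2 fold change of -0.50 (SE 0.18, edgeR adjusted p = 0.143) was -0.25 without the pair of libraries. Fdft1 (squalene synthase), Lss (lanosterol synthase), Tm7sf2 (a sterol reductase), Msmo1 and Nsdhl (removal of methyl groups), Hsd17b7 (a ketosterol reductase), Ebp (a sterol isomerase) and Sc5d (a desaturase) had log2 fold changes of -0.31 in Tm7sf2 to 0.37 in Sc5d, and of -0.25 in Hsd17b7 to 0.18 in Ebp without the pair. The sterol carrier Stard4 had 212 to 293 CPM late, median 269.9 CPM, against 281, 111 and 92.5 CPM in mouse_283 and 286 and 192 CPM in mouse_285, a log2 fold change of 0.46, and of 0.07 without the pair.

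Of the 7 fatty acid genes, Fasn (ENSMUSG00000025153.8), the fatty acid synthase, differed most. Late libraries had 665 to 959 CPM, median 771 CPM, against 1156, 1531 and 1309 CPM in passages 2, 3 and 4 of mouse_283 and 841 and 1392 CPM in passages 2 and 4 of mouse_285. Every early library of mouse_283 lay above all late libraries, while passage 2 of mouse_285 lay within the late range. Fasn averaged 796 ± 112 CPM late and 1246 ± 264 CPM early (SD, n = 6 and 5), a log2 fold change of -0.63 (SE 0.18, edgeR adjusted p = 0.0842), and -0.50 when passages 3 and 4 of mouse_283 were left out (edgeR adjusted p = 0.121). Acss2, which makes acetyl-CoA from acetate, had 99.0 to 133 CPM late, median 108 CPM, against 123, 171 and 162 CPM in mouse_283 and 122 and 140.0 CPM in mouse_285, a log2 fold change of -0.36, and of -0.22 without the pair. Acly, the citrate lyase, and Acaca, the acetyl-CoA carboxylase that commits carbon to fatty acids, had log2 fold changes of -0.20 and 0.07, and of -0.24 and -0.09 without the pair. Elovl6, an elongase, had 62.1 to 114 CPM late, median 78.2 CPM, against 82.3, 34.6 and 16.4 CPM in mouse_283 and 73.8 and 61.1 CPM in mouse_285, so its log2 fold change of 0.61 became 0.17 without the low pair.

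The stearoyl-CoA desaturases, which place the first double bond in fatty acids, held the highest median levels per kilobase among the members. Scd2 had 2912 to 4106 CPM late, median 3673 CPM, against 4878, 3326 and 3382 CPM in passages 2, 3 and 4 of mouse_283 and 4226 and 3435 CPM in passages 2 and 4 of mouse_285. Scd1 had 805 to 1177 CPM late, median 945 CPM, against 1574, 652 and 529 CPM in mouse_283 and 1098 and 921 CPM in mouse_285. The log2 fold change was -0.10 in Scd2 and 0.02 in Scd1, and without the pair -0.23 and -0.32 (edgeR adjusted p = 0.428 and 0.298). They are near copies of each other, so the counts may not reflect reads that match both genes. Per kilobase of the longest annotated transcript, the median level of Scd2 was 654 CPM per kb, followed by Scd1 at 191, Insig1 at 183, Fdps at 159.6 and Cyp51 at 124 CPM per kb. At the low end stood Hsd17b7 at 15.0, Elovl6 at 12.4 and Acaca at 9.48 CPM per kb. All 29 members summed to 9733 to 12180 CPM in late and 10830 to 13660 CPM in early libraries.

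The members split by base composition in passages 3 and 4 of mouse_283. Over the 29 genes the log2 level there minus that in the other 9 libraries followed transcript GC content with Pearson's r = 0.83 and Spearman's rho = 0.91, against 0.67 and 0.69 over 13709 genes. These are correlations across genes measured in the same libraries, and genes are not independent replicates. The 10 members of lowest GC content (41.9% to 47.8%) had a median difference of -0.97 and the 10 of highest (51.8% to 59.1%) one of 0.75. Late minus early fold changes followed GC content in the opposite sense with all libraries (r = -0.86), and with r = -0.28 without the pair. Removing the pair changed the sign of 15 of the 29 fold changes and narrowed them to -0.50 to 0.18, with all 29 intervals within -1 to 1. No member was then called, against 4.76% of 14630 genes. An unadjusted p under 0.05 was then reached by 2 members, Srebf1 and Fasn (6.9%), against 20.4% of all tested genes. After a correction for GC content and transcript length in every library, again no member was called, against 7.19% of 13709 genes. The smallest adjusted p-values were then those of Srebf1 (log2 fold change -0.40, edgeR adjusted p = 0.0647), Acss2 (-0.56, 0.0661) and Fasn (-0.44, 0.0812).

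**Figure D3:**
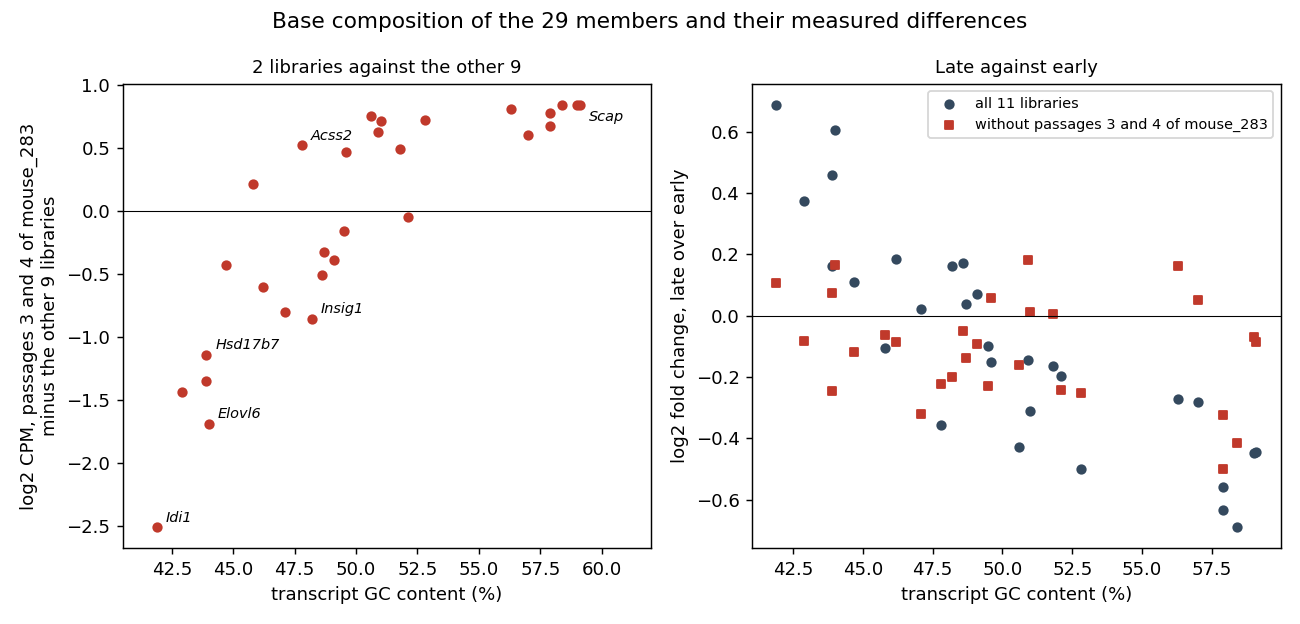
Transcript GC content of each member (x axis, percent) against its log2 CPM in passages 3 and 4 of mouse_283 minus the other 9 libraries (left) and against its late over early log2 fold change (right; circles all 11 libraries, squares without that pair). Of the 10 members lowest in GC content 2 lay above 0 in the pair, and of the 10 highest 9 did, and the slope on the right is shallower without it.

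The count of members called changed most when a single library was left out. Without passage 2 of mouse_283, the early libraries of that animal are passages 3 and 4 alone, and 13 members were called, 4 higher late (Idi1, Sc5d, Stard4 and Elovl6) and 9 lower (Srebf2, Srebf1, Scap, Mvd, Fdps, Tm7sf2, Dhcr7, Acss2 and Fasn), where 34.7% of 14052 genes were called. The 4 genes had GC contents of 41.9% to 44.0% and the 9 had 47.8% to 59.1%. Without passage 2 of mouse_285, Fasn was called lower (edgeR adjusted p = 0.0431), with 2.72% of genes called. With no filter on low counts, Srebf1 was called lower and Idi1 and Elovl6 higher, with 7.74% of 23493 genes called. Within mouse_283, 21 members were called once passage 2 was left out, where 54.8% of genes were, and the stage effect then differed between the animals for 6 members, against 16.5% of genes. The part of base composition in these calls was not tested beyond the fits given here.

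**Figure D4:**
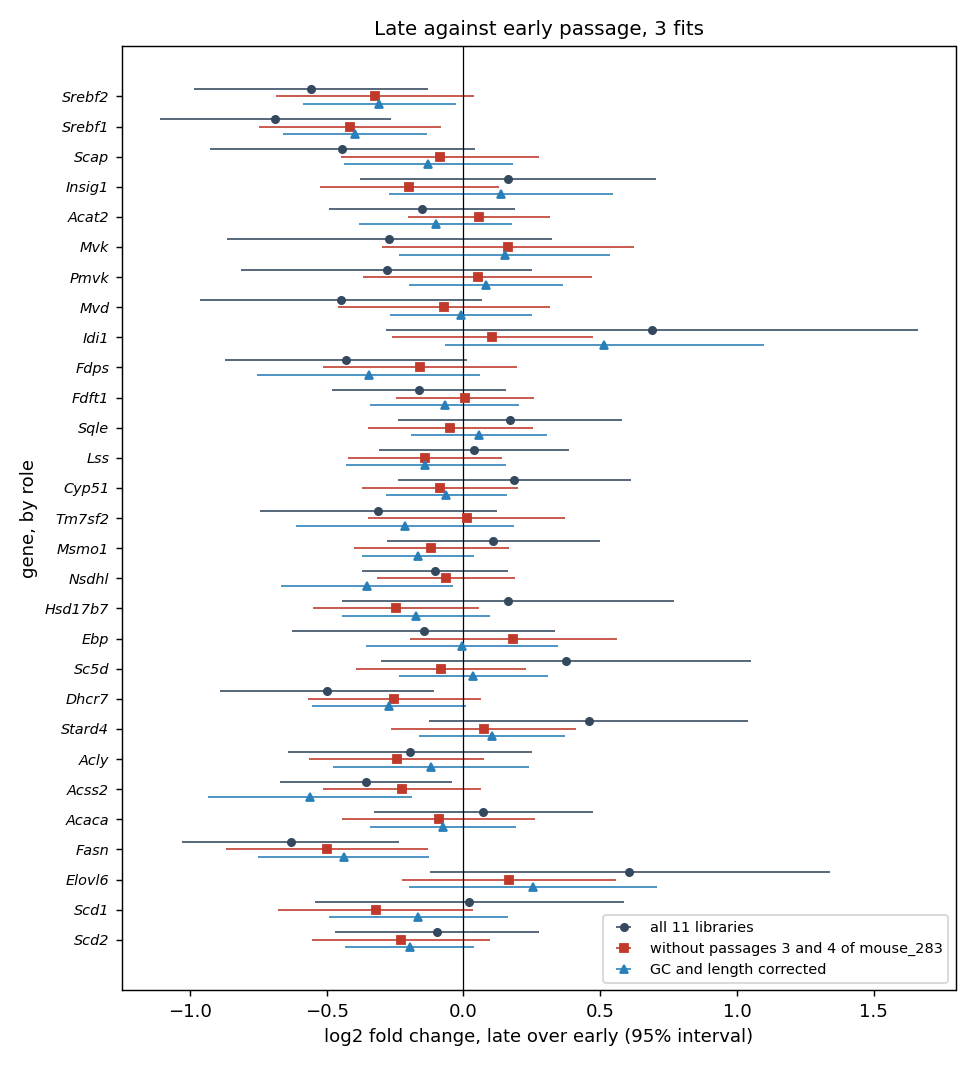
Log2 fold change of late over early passage (x axis, with 95% intervals) of the 29 genes by role, from all 11 libraries (circles), without passages 3 and 4 of mouse_283 (squares) and after GC and length correction (triangles). Srebf1 and Fasn lie left of 0 with intervals that exclude it in each of the 3 fits, before adjustment over all genes.

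Within each animal no member was called with all libraries. In mouse_283 3 members (10.3%) had an unadjusted p under 0.05, against 18.8% of all tested genes, and 1.42% of genes were called. In mouse_285 no member had one, no gene was called (0%), and 762 genes had an unadjusted p under 0.05. For the difference in stage effect between the animals no member and no gene was called (0%) and 302 genes but no member had an unadjusted p under 0.05. Without the pair, 6.37% of genes were called in mouse_283, whose lone early library is then assumed to vary like the other groups, 2.17% in mouse_285 and 0.0342% for the difference. Unadjusted p-values under 0.05 were then reached by 6, 4 and 5 members in the same order. With all libraries and stage in the model, no member was called between mouse_285 and mouse_283, against 0.0776% of genes. No member had an unadjusted p under 0.05 there, against 5.15% of all tested genes. The log2 differences, mouse_285 minus mouse_283, were negative for 22 of 29 members, with a median of -0.12 and a range of -0.31 in Mvk to 0.30 in Stard4. Without the pair no member was called either, against 0.731% of genes, 19 of 29 differences were negative, and those of Mvk and Stard4 were 0.05 and -0.01. Insig1 (-0.34), Cyp51 (-0.33) and Msmo1 (-0.34) then had an unadjusted p under 0.05, with edgeR adjusted p-values of 0.481, 0.371 and 0.344. These 3 were 10.3% of the members, against 9% of all tested genes.

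Over the 9 libraries other than that pair, groups of members, picked out after their values were seen, varied together. Log2 levels of Sqle and Cyp51 correlated with r = 0.96, Insig1 and Sqle with 0.94, Msmo1 and Sc5d with 0.94, and Cyp51 and Msmo1 with 0.93. A second such group held Pmvk and Mvd (r = 0.95), Mvk and Tm7sf2 (0.92) and Pmvk and Tm7sf2 (0.91). The first is GC-poor, at 42.9% to 48.6%, and the second GC-rich, at 51.0% to 59.0%. After GC and length correction over all 11 libraries, the correlation was 0.62 for Sqle and Cyp51, 0.68 for Insig1 and Sqle, 0.79 for Cyp51 and Msmo1 and 0.34 for Msmo1 and Sc5d. In the first group it ran from -0.21 (Insig1 and Msmo1) to 0.82 (Sqle and Sc5d). In the second group it was 0.79 for Pmvk and Mvd, 0.68 for Mvk and Tm7sf2 and -0.10 for Pmvk and Tm7sf2. Among all pairs of mevalonate and sterol enzymes the median correlation was 0.20 over the 9 libraries without correction. Over all 11 libraries it was -0.16 without correction and 0.33 after it. These correlations are descriptions over libraries that share animals and normalisation.

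Other genes of sterol and fatty acid handling, from lists of names, were read against the same 3.05%. Of 8 further sterol synthesis genes tested none was called. The smallest p-value there belonged to Por, the reductase that feeds electrons to Cyp51 (log2 fold change -0.85, edgeR adjusted p = 0.0504), and Dhdds had a log2 fold change of -0.48 (edgeR adjusted p = 0.179). Of 10 genes that act on SREBP processing 1 was lower, Paqr3, at no more than 1.94 CPM in any library. Of 19 sterol uptake and export genes 3 were lower late and none higher. Npc1l1, the apical cholesterol importer, had 163 to 278 CPM late, median 216 CPM, against 514, 371 and 300.0 CPM in mouse_283 and 371 and 503 CPM in mouse_285 (log2 fold change -0.92, edgeR adjusted p = 0.0317). Scarb1, a lipoprotein receptor, and Abcg8, which with Abcg5 exports sterol to the lumen, had log2 fold changes of -0.94 (edgeR adjusted p = 0.0297) and -0.81 (edgeR adjusted p = 0.012). Of 20 further lipid synthesis genes 3 were lower, Mlxipl, the carbohydrate response factor (-0.59, edgeR adjusted p = 0.0429), the desaturase Fads2 (-0.81, 0.0414) and Pnpla3 (-1.44, 0.0216). Without passages 3 and 4 of mouse_283 the fold changes were -1.07 in Npc1l1, -0.67 in Scarb1, -0.76 in Abcg8, -0.61 in Mlxipl and -1.62 in Pnpla3, all 5 still called, while Fads2 (-0.56, edgeR adjusted p = 0.0625) and Paqr3 (-1.22, edgeR adjusted p = 0.0828) were not. Paqr3 had a log2 fold change of -1.34 with all libraries (edgeR adjusted p = 0.0429). These falls stood beside the lower enterocyte marker sum given above, and its part in them was not tested.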

How the data were processed

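Trimmomatic, STAR and the mouse build mm9 are named in the submitters' processing notes, without roles. Versions, and the annotation release, are not given in the sources used here. The authors deposited raw read counts per gene, unstranded and for each strand, and the unstranded column was used because the first strand held 50.0% to 50.2% of stranded reads. Identifiers were matched to symbols for 32620 of 37310 genes. Summary lines of the tables were left out. No 2 libraries were duplicates (smallest chi-square per degree of freedom 15.1). With R 4.3.3 and edgeR 4.0.16, genes were filtered by filterByExpr, scaled by TMM and tested by the two-sided quasi-likelihood F test with Benjamini-Hochberg adjustment at 0.05, with animal and stage as terms. The SE is the log2 fold change divided by the square root of F, and log2 CPM used a prior count of 2. DESeq2 1.42.0 was an alternative. GC content and length came from the longest transcript of each gene in an annotation of GRCm38, for 13709 tested genes, and entered as splines with 5 degrees of freedom. The procedure was tested on simulated data. Members, gene lists and tests were chosen with earlier results of these data known. All members were named, and of each further list the genes past the threshold or, failing that, up to 4 with the smallest p. Some genes that this rule covers are not reported here. Replicate numbers pair no libraries, while the animal of each library is given by its title and was the block.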

Additional observations from a re-analysis of the deposited data

How the results depend on the processing

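The count of all genes called late against early, 432, was 1343 with DESeq2, 1819 without a low-count filter, 697 without passages 3 and 4 of mouse_283, 986 after GC and length correction, and 173 to 4872 when libraries were left out in turn. Members called higher were 2 without a low-count filter and 0 to 4 with libraries left out. Members called lower were 2 with DESeq2, 1 without the filter and 0 to 9 with libraries left out. Members with an unadjusted p under 0.05 were 5 as reported and 2 without passages 3 and 4 of mouse_283. The latter stood against 20.4% of all tested genes. With libraries left out 2 to 15 members reached it, the lowest count without passage 4 of mouse_285. Within mouse_283 0 to 21 members were called with libraries left out, and 0 to 6 for the difference between the animals. All the highest of these counts came without passage 2 of mouse_283, and the cause was not tested. The members' median log2 fold change, -0.15, ran from -0.172 to -0.0204 with libraries left out, and the value nearest 0 came without passage 3 of mouse_283. With no replicate block, that is with the animal left out of the model, 400 genes and no member were called, and the median was -0.17. RLE size factors and passage number as a continuous term called no member. Over 18 alternatives the sign of a member's fold change, called in neither fit, changed for 8 members after GC correction and 15 without passages 3 and 4 of mouse_283, and for at most 4 under any other. Sc5d and Tm7sf2, called without passage 2 of mouse_283, reached -0.08 and 0.01 under another alternative, against 0.75 and -0.45 in that fit. Of the 7 other genes called, Abcg8 lost its call under 1 alternative, Npc1l1 under 6, Scarb1 and Pnpla3 under 7, Fads2 and Paqr3 under 10 and Mlxipl under 12.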
